A study of Mus musculus with 9 samples.

Results

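The immediate early response genes encode transcription factors and cofactors whose messages appear within minutes of a stimulus and are destroyed again soon after. The group was chosen by symbol, as Fos, Fosb, Fosl1, Jun, Junb, Egr1, Egr2, Ier2, Atf3 and Klf6. Of these 10 genes, 9 were found among the 15977 genes of the deposited table, and Fosl1 was not analysed here. The messages were sequenced in mouse neuroblastoma cells of the N2A line that lacked their own MOV10, an RNA helicase, through a knockout. The cells were grown in medium with 10% serum and, when confluent, transfected with 2 micrograms of DNA, and RNA was harvested 24 hours later. The 3 groups of 3 libraries differed in the MOV10 that was put back: WT, the unaltered protein; S970A, with alanine in place of serine 970, which cannot be phosphorylated; or S970D, with aspartate there, whose charge stands in for a phosphate. All 9 libraries therefore share the knockout and a transfection, none received a labelled stimulus, and cells without transfection were not analysed here. The labels do not say whether the knockout line is 1 clone, nor that replicates are separate cultures, so p-values measure the spread between these libraries only.

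Immediate early genes are switched on without new protein synthesis. Mitogen-activated protein (MAP) kinases phosphorylate factors already bound to the promoters, among them the serum response factor with its ternary complex partners and CREB. The products then act on later genes: FOS and JUN proteins pair as the AP-1 factor, ATF3 joins the same family of leucine zipper proteins, and EGR1, EGR2 and KLF6 bind GC-rich DNA through zinc fingers. Their messages are short-lived, in many cases through AU-rich elements of the 3′ untranslated region, which decay factors such as tristetraprolin and stabilisers such as HuR recognise. MOV10 is known as an RNA helicase that binds untranslated regions and the Argonaute silencing machinery.

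The 3′ untranslated regions of the members differ in AU-rich pentamers (ATTTA in DNA letters), the core of the element. In the transcript with the longest coding sequence in GENCODE vM21 (GRCm38), Klf6 held 7, Fos and Jun 4 each, Atf3 and Egr2 3 each, Junb and Egr1 2 each, and Fosb 1. Ier2 held none in an untranslated region of 755 bases. The table carries a later version of the Ier2 gene ID than this annotation, so its transcript model may differ. At least 1 pentamer was present in 8 of the 9 members and in 64.3% of the 12946 genes of the table with such a region. The nonamer TTATTTATT was present in Fos alone of the 9, and in 7.16% of those genes. The sites below, from the strand of the message, are shown for members that differ in level or response. The pentamers are in capitals, and overlapping ones run together.
Fos (chr12:85477105-85477129, plus strand): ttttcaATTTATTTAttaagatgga
Klf6 (chr13:5868492-5868516, plus strand): tacgtctcttATTTAtgccttgagg
Atf3 (chr1:191170340-191170364, minus strand): aatattacttATTTAtcccagtatt
Jun (chr4:95049081-95049105, minus strand): gcttgtgcatATTTAtaatagcgtt
Junb (chr8:84977129-84977153, minus strand): atatttgtgtATTTAacagggaggg
Fos shows pentamers that overlap by a base. Klf6, Atf3 and Jun have 1 pentamer with T on its 3′ side in the window shown, and Junb has 1 followed by A.

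Promoters (250 bases before to 50 after a start, RefSeq, GRCm38.p6) were found for 7 of the 10 members. Both strands were searched for TGACG, the core site bound by CREB and ATF proteins, for the full site TGACGTCA, which contains it, for TGACATCA, a close form of it, for the AP-1 site TGACTCA, for the TATA sequence TATAAA, for the EGR site GCGGGGGCG and for the CArG box of the serum response factor. TGACATCA was found in Jun and Klf6, and in 3.62% of all 32851 promoters. TGACG was found in Atf3, Egr2, Fos, Fosb and Junb, and in 20.8% of all. TATAAA was found in Fos and Junb (13.6% of all), GCGGGGGCG in Fosb (2.91%) and a CArG box in Egr2 (1.63%). Egr2 had 5 promoters and was credited with a match in any of them, while the shares count single promoters. The other 6 members had 1 promoter each. TGACGTCA (1.79%) and TGACTCA (5.20%) matched no member. The 4 promoters below belong to members that stood lower (Klf6, Atf3, Jun) or higher (Junb) in S970D, with the matches in capitals.
Klf6 (chr13:5861239-5861538, plus strand): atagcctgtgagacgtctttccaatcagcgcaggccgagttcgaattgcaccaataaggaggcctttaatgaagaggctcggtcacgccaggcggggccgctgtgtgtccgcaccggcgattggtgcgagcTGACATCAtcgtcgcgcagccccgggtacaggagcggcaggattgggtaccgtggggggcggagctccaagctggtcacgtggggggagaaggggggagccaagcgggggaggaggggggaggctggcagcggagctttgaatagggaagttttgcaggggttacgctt
Jun (chr4:95052173-95052472, minus strand): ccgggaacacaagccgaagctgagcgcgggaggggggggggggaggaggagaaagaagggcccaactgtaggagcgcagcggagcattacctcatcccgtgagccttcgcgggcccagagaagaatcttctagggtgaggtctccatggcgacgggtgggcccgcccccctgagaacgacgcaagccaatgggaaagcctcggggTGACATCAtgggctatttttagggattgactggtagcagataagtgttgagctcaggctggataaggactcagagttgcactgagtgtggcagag
Atf3 (chr1:191183284-191183583, minus strand): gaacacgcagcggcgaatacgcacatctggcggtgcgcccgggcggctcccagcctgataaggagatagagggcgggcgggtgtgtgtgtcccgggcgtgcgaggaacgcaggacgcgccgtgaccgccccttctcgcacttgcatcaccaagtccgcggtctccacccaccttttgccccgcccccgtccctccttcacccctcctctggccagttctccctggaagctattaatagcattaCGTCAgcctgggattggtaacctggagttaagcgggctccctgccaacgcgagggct
Junb (chr8:84978699-84978998, minus strand): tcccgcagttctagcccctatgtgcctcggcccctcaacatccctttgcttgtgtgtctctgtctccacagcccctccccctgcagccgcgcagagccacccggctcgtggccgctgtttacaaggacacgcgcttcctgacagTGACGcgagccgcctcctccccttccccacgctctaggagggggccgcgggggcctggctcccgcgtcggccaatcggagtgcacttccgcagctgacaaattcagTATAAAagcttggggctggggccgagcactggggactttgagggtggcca
Klf6 and Jun share TGACATCA on the gene's own strand. The Atf3 match is TGACG read on the opposite strand, close to a start that lies inside the annotated gene, and Junb holds both TGACG and TATAAA.

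The deposited values are log2 CPM (read counts relative to the library's total, on a log2 scale, with a small prior count added), and the table gives neither counts nor depths. The lowest value of the table is -4.09, and the members lay between 0.76 and 7.59, well above it. S970A replicate 1 stood furthest from its group. On the first principal component over all genes but Mov10, which held 64.0% of the variance, it scored 0.40, among the S970D libraries (0.25 to 0.44). The other S970A libraries, at -0.21 and -0.33, fell inside the WT range (-0.46 to -0.04). The upper end of that range was WT replicate 1, and the other WT libraries, at -0.355 and -0.455, scored below both of these S970A libraries. Replicate 1 had the highest score in every group. For 8 of the 9 members, WT replicate 1 was also the WT library nearest the S970D mean. Results are given with and without S970A replicate 1. Of 9 listed neuroblastoma and sympathetic markers, 8 were measured, with summed levels of 863 to 1160 CPM in WT, 962 to 1720 in S970A and 1530 to 2020 in S970D, and 4 of the 8 had a higher mean log2 CPM in S970D than in WT. Of 10 neuronal markers, 9 were measured, at 1270 to 1330 CPM in sum in WT, 1210 to 1590 in S970A and 1520 to 1610 in S970D, and 6 of the 9 were higher in S970D than in WT. Markers of other cell types were few and low: 3 of 8 fibroblast genes were measured at 12.9 to 21.0 CPM in sum, 2 of 6 endothelial genes at 7.70 to 12.3, 2 of 6 epithelial genes at 1.26 to 3.11, and 1 of 8 macrophage genes, Cd68, at 0.50 to 0.75 in WT, 0.47 to 0.83 in S970A and 1.24 to 2.28 in S970D. The part of these marker levels in the results was not tested. None of the measured markers was at the table's minimum. In bulk RNA, fewer cells of a type and less RNA per cell cannot be told apart.

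The members covered a wide range of levels. Per kilobase of transcript, on the log2 CPM scale, the means over the 9 libraries ran from Junb (6.31) through Ier2 (5.98), Jun (5.20), Atf3 (4.38), Klf6 (3.92), Egr1 (3.24), Fos (1.59) and Egr2 (0.17) to Fosb (-0.83). Junb and Ier2 differed by less than the SD of Ier2 over the libraries (0.67), and Atf3 and Klf6 by less than that of Klf6 (0.66). The 2 JUN genes stood far above the 2 FOS genes: 92.7% of the genes of the table had a lower mean log2 CPM than Junb and 90.7% a lower one than Jun, against 37.8% for Fos and 27.5% for Fosb. Summed over the 9 members, the level was 531 to 552 CPM in WT, 521 to 543 in S970A and 496 to 574 in S970D, so the groups overlapped in the total while single members moved apart.

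**Figure D1:**
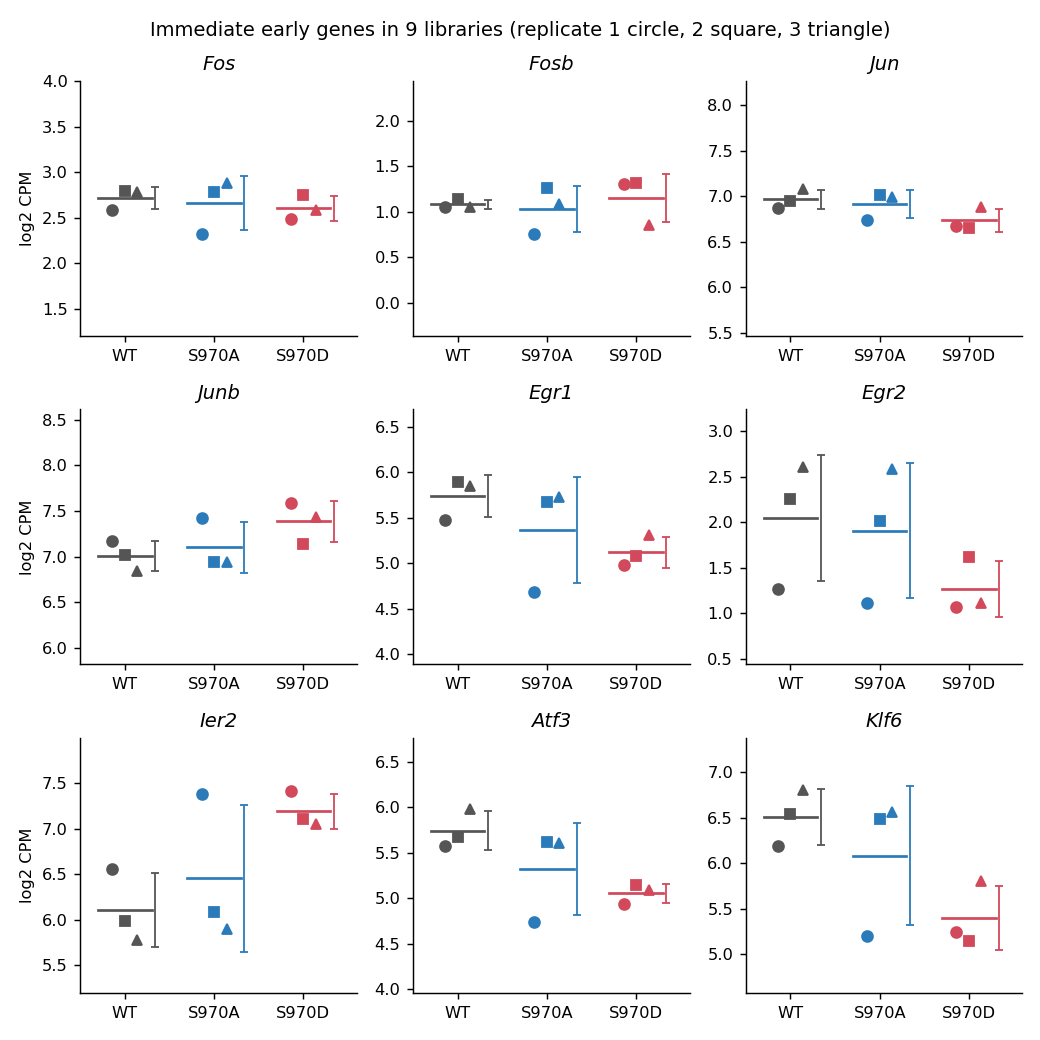
Level of each measured member in log2 CPM (vertical axis, each panel spanning the same height) in the 3 WT, 3 S970A and 3 S970D libraries; points are libraries (replicate 1 circle, 2 square, 3 triangle), bars group means and error bars SD. Ier2 was higher in each S970D library than in each WT library, and Klf6, Atf3 and Egr1 were lower, while S970A replicate 1 lies with the S970D libraries.

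The first comparison, S970D against WT, addresses message levels in cells with the phosphate-mimicking form of MOV10. Ier2 was 2.12 times as abundant in S970D as in WT, and Klf6, Atf3 and Egr1 were at 0.46, 0.62 and 0.65 of their WT level. Junb was slightly higher, Jun and Egr2 lower, and Fos and Fosb close to equal. In the limma fit of all 9 libraries none of the 9 members passed at an adjusted p under 0.05, where 0.00626% of all genes did (1 gene). At an unadjusted p under 0.05 there were 3 members (Ier2, Klf6 and Atf3), against 44.3% of all genes. The groups did not overlap in 4 of 9 members (44.4%), against 57.2% of all genes. Both shares were near those of all genes for a group of 9, so nothing about the members is read from them. Above 0 were 3 members and below 0 were 6, with a median log2 difference of -0.24, against a median of 0.00 over all genes.

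Calls depended on the libraries in the fit. With S970A replicate 1 left out, which belongs to neither group but enters the shared spread, 4 members passed: Ier2 rose, and Klf6, Atf3 and Egr1 fell (limma adjusted p from 0.00637 to 0.0107). In that fit 47.7% of all genes passed. The library was singled out after its values were seen, so the narrower shared spread of this fit comes by selection. When replicate numbers entered as a block, 5 of 9 members passed, the same 4 and Junb as higher (limma adjusted p from 0.00762 to 0.0456), against 45.5% of all genes. The Junb call turned to lower when the trend over transcript length and GC content, described further on, was removed in the blocked fit (-0.38, limma adjusted p = 0.0453). An exact permutation test of any 1 member cannot go below p = 0.1 with 3 libraries against 3, which is the value for each of the 4 members without overlap.

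Of the FOS subunits of AP-1, neither differed beyond the spread of its replicates. Fos (ENSMUSG00000021250.13, chromosome 12, 85473890 to 85477273, plus strand), whose protein needs a JUN partner to bind DNA, was at 2.58, 2.79 and 2.78 log2 CPM in WT replicates 1, 2 and 3, at 2.32, 2.78 and 2.88 in S970A and at 2.48, 2.75 and 2.58 in S970D. The 3 groups overlap, with S970A replicate 1 the lowest of the 9. S970D differed from WT by -0.11 ± 0.19 (SE; limma adjusted p = 0.652). Fosb (ENSMUSG00000003545.3, chromosome 7, 19302696 to 19310051, minus strand) encodes a related subunit and was the least abundant member. It was at 1.05, 1.14 and 1.05 log2 CPM in WT, at 0.76, 1.26 and 1.08 in S970A and at 1.30, 1.31 and 0.85 in S970D. WT was tight and lay inside the range of both mutants. S970D differed from WT by 0.07 ± 0.21 (limma adjusted p = 0.806).

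The JUN subunits, which can pair with each other as well as with FOS proteins, stood apart from each other in S970D. Junb (ENSMUSG00000052837.6, chromosome 8, 84974484 to 84978718, minus strand), often a weaker activator than JUN, was at 7.17, 7.02 and 6.84 log2 CPM in WT, at 7.42, 6.94 and 6.94 in S970A and at 7.59, 7.14 and 7.43 in S970D. S970D replicate 2 lay just below WT replicate 1, so the groups overlap. The difference was 0.38 ± 0.19 (SE; limma adjusted p = 0.147, and 0.0456 with the replicate block), and it was positive in all 3 same-numbered pairs, but was -0.38 with the length and GC trend removed. Jun (ENSMUSG00000052684.4, chromosome 4, 95049034 to 95052222, minus strand), which encodes the main transactivating partner of FOS, was at 6.87, 6.95 and 7.08 log2 CPM in WT, at 6.74, 7.01 and 6.99 in S970A and at 6.67, 6.65 and 6.88 in S970D. S970D replicate 3 reached the lowest WT library, and the other 2 S970D libraries lay below all of WT. The difference was -0.24 ± 0.14 (limma adjusted p = 0.203, and 0.116 with the block). Between libraries of one number it was -0.20, -0.30 and -0.21, of one sign in all 3 pairs, and with the length and GC trend removed Jun passed in the blocked fit (-0.40, limma adjusted p = 0.0312).

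Atf3, Egr1 and Klf6 were all lower in S970D. Atf3 (ENSMUSG00000026628.13, chromosome 1, 191170296 to 191218039, minus strand) encodes a stress-induced leucine zipper protein that represses many of its targets. It was at 5.57, 5.67 and 5.98 log2 CPM in WT, at 4.74, 5.62 and 5.61 in S970A and at 4.94, 5.14 and 5.09 in S970D. Every S970D library lay below every WT library, and S970A replicate 1 below all of them. S970D differed from WT by -0.69 ± 0.24 (SE; limma adjusted p = 0.0775, 0.00669 without S970A replicate 1 and 0.0159 with the block). Egr1 (ENSMUSG00000038418.7, chromosome 18, 34859823 to 34864984, plus strand), the founding EGR zinc finger factor, was at 5.48, 5.89 and 5.85 log2 CPM in WT, at 4.69, 5.67 and 5.73 in S970A and at 4.98, 5.08 and 5.31 in S970D. The groups S970D and WT did not overlap, and S970A replicate 1 was again the lowest. The difference was -0.61 ± 0.27 (limma adjusted p = 0.114, 0.0107 without S970A replicate 1 and 0.0255 with the block).

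Klf6 (ENSMUSG00000000078.7, chromosome 13, 5861482 to 5870394, plus strand), a Krüppel-like factor, had the lowest ratio of the 9 in S970D. It was at 6.19, 6.54 and 6.80 log2 CPM in WT, at 5.20, 6.49 and 6.56 in S970A and at 5.24, 5.15 and 5.80 in S970D. In CPM the WT libraries held 73.1 to 112 and the S970D libraries 35.4 to 55.7. The difference was -1.12 ± 0.36 (SE; limma adjusted p = 0.0756, 0.00637 without S970A replicate 1 and 0.00888 with the block). Egr2 (ENSMUSG00000037868.15, chromosome 10, 67535475 to 67542188, plus strand) is a zinc finger factor that also drives myelination in Schwann cells. It was at 1.27, 2.26 and 2.61 log2 CPM in WT, at 1.12, 2.01 and 2.59 in S970A and at 1.07, 1.62 and 1.12 in S970D. Replicate 1 was the lowest library of its group in all 3 groups, and WT and S970D overlap. The difference was -0.78 ± 0.43 (limma adjusted p = 0.181, and 0.0502 with the block). Of 8 Schwann and glial markers 4 were measured, at 105 to 116 CPM in sum in WT, 69.9 to 122 in S970A and 66.5 to 103 in S970D, and their part in the Egr2 values was not tested.

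Ier2 (ENSMUSG00000053560.5, on the minus strand of chromosome 8, 84661331 to 84662852 in the annotation's version of the gene), which encodes a small nuclear protein without a DNA-binding domain of the families above, had the highest ratio of the 9. It was at 6.56, 5.98 and 5.78 log2 CPM in WT, at 7.38, 6.08 and 5.90 in S970A and at 7.41, 7.11 and 7.05 in S970D. The S970D libraries held 132 to 170 CPM and the WT libraries 54.8 to 94.2, without overlap, and S970A replicate 1 held 167. The difference was 1.08 ± 0.37 (SE; limma adjusted p = 0.0759, 0.00639 without S970A replicate 1 and 0.00762 with the block).

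**Figure D2:**
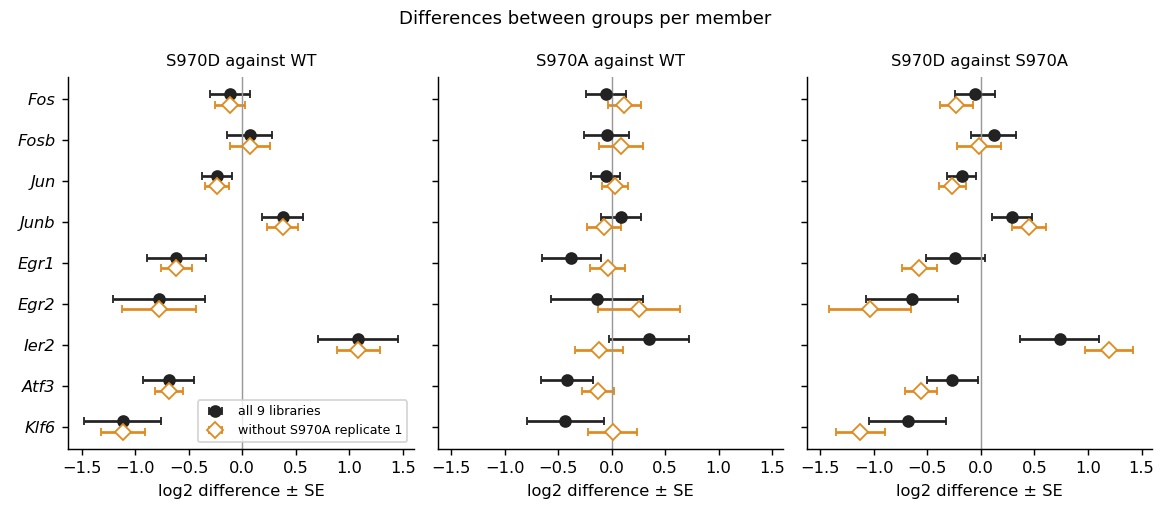
Log2 difference of each member (horizontal axis, ± SE) in the 3 comparisons, with all 9 libraries (filled circles) and without S970A replicate 1 (open diamonds). Leaving that library out narrows the errors in S970D against WT, brings every S970A difference from WT to between -0.13 and 0.25, and widens most differences between S970D and S970A.

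The second comparison, S970A against WT, asks the same of a residue that cannot be phosphorylated. No member passed, nor did any gene of the table (limma, 0% of all genes at an adjusted p under 0.05), and at an unadjusted p under 0.05 there were 0 of 9 members against 1.75% of all genes. The groups overlapped in all 9 members, while 6.42% of all genes did not overlap. The log2 differences ran from -0.43 for Klf6, -0.42 for Atf3 and -0.38 for Egr1 to 0.35 for Ier2 (SE from 0.24 to 0.37; limma adjusted p = 0.776 for each). These values rest on 1 library: without S970A replicate 1 they were 0.01 for Klf6, -0.13 for Atf3, -0.04 for Egr1 and -0.11 for Ier2. Relative to the mean of S970A replicates 2 and 3, replicate 1 was higher by 1.39 for Ier2 and by 0.49 for Junb, and lower for the other 7, with differences of -1.33 for Klf6, -1.18 for Egr2, -1.01 for Egr1 and -0.87 for Atf3. For 8 of 9 members it lay nearer the S970D mean than the WT mean, Fosb being the exception, and for 8 of 9 both other S970A libraries lay nearer the WT mean, again all but Fosb.

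The third comparison, S970D against S970A, sets the mimic against the residue that cannot be phosphorylated. It shares libraries with both others. In the fit of all 9 libraries none of the members passed (limma, 0% of all genes), and 0 of 9 had an unadjusted p under 0.05, against 6.95% of all genes. The groups overlapped in all 9, while 8.07% of all genes did not. The log2 differences were 0.73 ± 0.37 (SE) for Ier2, -0.69 ± 0.36 for Klf6, -0.64 ± 0.43 for Egr2, 0.29 ± 0.19 for Junb, -0.27 ± 0.24 for Atf3 and -0.24 ± 0.27 for Egr1 (limma adjusted p from 0.411 to 0.587). Without S970A replicate 1 the fit takes the 2 remaining S970A libraries to vary like the other groups. That library was singled out for its likeness to the S970D libraries, so leaving it out widens this contrast by selection. Calls from this fit are therefore no independent support for a difference. Ier2 was then higher by 1.20 and Klf6, Egr1 and Atf3 were at -1.13, -0.58 and -0.56 (limma adjusted p from 0.0145 to 0.0260), so that 4 of 9 members passed, against 39.5% of all genes.

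Differences between 2 members of the same library do not depend on a factor by which the whole library was scaled. These pairs were chosen after the values had been seen. Ier2 minus Klf6 was 0.37, -0.56 and -1.03 on the log2 CPM scale in WT replicates 1, 2 and 3, and 2.17, 1.97 and 1.25 in S970D. In S970A it was 2.19, -0.41 and -0.65. WT and S970D did not overlap, with a shift of 2.2 between their means (exact two-sided permutation p = 0.1, n = 3 against 3, the smallest possible). Every S970D library lay above every WT library for Ier2 and below every one for Klf6. This separation and its p-value were therefore fixed by the choice of pair and add no support. Junb minus Jun was 0.30, 0.07 and -0.24 in WT, 0.69, -0.07 and -0.05 in S970A, and 0.92, 0.49 and 0.56 in S970D. Here too WT and S970D did not overlap, with a shift of 0.61 (exact permutation p = 0.1). Egr2 minus Egr1 shifted by -0.17 (exact permutation p = 0.8) and Fosb minus Fos by 0.18 (exact permutation p = 0.5), both with overlap.

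**Figure D3:**
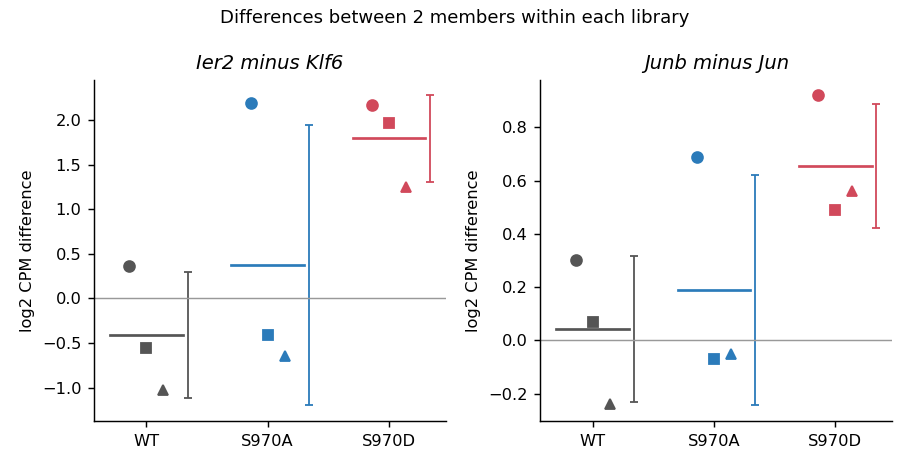
Difference in log2 CPM between Ier2 and Klf6 (left) and between Junb and Jun (right) within each library, by group; points are libraries (replicate 1 circle, 2 square, 3 triangle), bars means and error bars SD. All 3 S970D libraries lie above all 3 WT libraries in both panels, and S970A replicate 1 lies at or within the S970D range.

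For 3 of the members, the differences between S970D and WT went with transcript length and GC content. Ier2 and Junb are the shortest and most GC-rich messages of the 9, with 1522 and 1809 bases and 60.9% and 62.6% GC, and are those with the highest differences. Klf6, the most AT-rich, has 4225 bases and 42.4% GC, and has the lowest difference. The medians of the table are 2660 bases and 50.3% GC. Not every member followed: Egr1, with 57.3% GC and 4484 bases, was at -0.61, and Atf3, with 1984 bases and 52.2% GC, was at -0.69. Ier2, Junb and Jun are single-exon genes: 3 of the 9 members have 1 exon, against 11.6% of the table. When the trend over length and GC content was removed from each library, the difference between S970D and WT went from 1.08 to 0.29 for Ier2, from -1.12 to -0.48 for Klf6 and from 0.38 to -0.38 for Junb, whose direction turned. It went from -0.69 to -0.84 for Atf3, from -0.61 to -0.76 for Egr1 and from -0.24 to -0.40 for Jun, from -0.78 to -0.72 for Egr2, from -0.11 to -0.21 for Fos and from 0.07 to -0.06 for Fosb. The shift of Junb minus Jun went from 0.61 to 0.02 and that of Ier2 minus Klf6 from 2.2 to 0.77.

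With the trend removed, 8 of 9 members stood below 0, with a median of -0.40, against -0.007 over all genes. The tilt was not particular to the members. On that scale the medians of the 8 gene lists described below were also all under 0. They ran from -0.44 for the serum response factor and CREB genes to -0.01 for the stress genes. No member passed in all 9 libraries (limma adjusted p of 0.116 or more). With the replicate block as well, 4 of 9 fell, Atf3, Egr1, Jun and Junb (limma adjusted p from 0.0225 to 0.0453), against 24.7% of all genes, while Klf6 did not pass (limma adjusted p = 0.0643). Without S970A replicate 1 in place of the block, a choice made after the data were seen, 5 of 9 fell: Atf3, Egr1, Jun, Junb and Klf6 (limma adjusted p from 0.0146 to 0.0418), against 26.2% of all genes, while Ier2 (0.29, limma adjusted p = 0.0560) no longer passed. On that scale Ier2 was at 6.66, 6.39 and 6.38 in WT, at 6.85, 6.36 and 6.30 in S970A, and at 6.81, 6.75 and 6.74 in S970D. Atf3 was at 5.58, 5.75 and 6.10 in WT, at 4.63, 5.70 and 5.70 in S970A, and at 4.83, 5.05 and 5.03 in S970D. S970A replicate 1 therefore stayed with the S970D libraries for both genes. For Atf3, Egr1, Jun and Fos the difference between S970D and WT was larger after the removal. The part of length and GC content in the difference of any member was not tested.

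**Figure D4:**
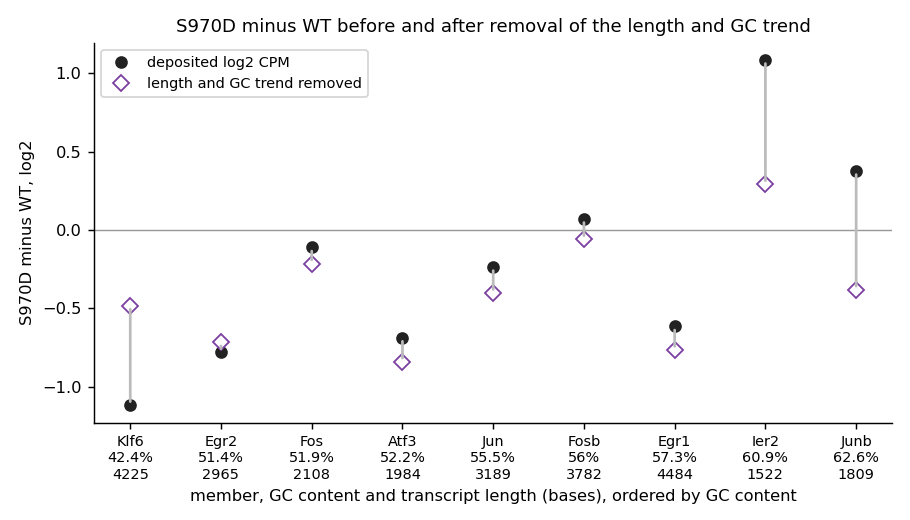
Log2 difference between S970D and WT (vertical axis) for each member, from the deposited values (filled circles) and after removal of the length and GC trend (open diamonds), ordered by GC content, with GC percent and transcript length in bases under each name. Ier2 and Junb, at the GC-rich end, move down by 0.79 and 0.76, and Klf6, at the AT-rich end, moves up from -1.12 to -0.48.

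The level of the transfected gene moved with the same libraries. Mov10 was at 14.90, 15.49 and 15.71 log2 CPM in WT, at 14.62, 15.24 and 15.42 in S970A, and at 14.57, 14.84 and 14.75 in S970D. The 4 libraries with the highest Ier2 (the S970D libraries and S970A replicate 1) are also the 4 with the lowest Mov10. The species of the transfected DNA is not given in the labels, and the part of the Mov10 level in these results was not tested.

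Genes that act around the immediate early genes were taken from 8 lists, and none of their genes passed in the fit of all 9 libraries in any of the 3 comparisons. Calls for S970D against WT, written below as rose and fell, are from the fit without S970A replicate 1. In it 22.8% of all genes passed as higher and 24.9% as lower. That library was singled out for standing furthest from its group, so leaving it out narrows the shared spread by selection. The calls are therefore no independent support for a difference. Of the other AP-1 and leucine zipper genes, 11 of 13 were measured, 4 rose and 2 fell (median 0.19, and -0.19 with the trend removed). Jund, the third JUN gene, was higher by 1.42 ± 0.44 (SE), Atf7, a CREB-related factor, by 0.95 ± 0.29 and Fosl2, which encodes a FOS-related subunit, by 0.55 ± 0.18. With the length and GC trend removed these values were 0.49, 1.47 and 0.75. Jund values were 7.50, 6.69 and 6.57 log2 CPM in WT and 8.72, 8.0 and 8.30 in S970D, without overlap. The 3 JUN genes stood at 1.42, 0.38 and -0.24 for Jund, Junb and Jun, and with the trend removed at 0.49, -0.38 and -0.40.

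Among upstream regulators more genes fell than rose in S970D. Of the serum response factor, ternary complex and CREB genes, 15 of 17 were measured, 1 rose and 7 fell, with a median log2 difference of -0.68 (-0.44 with the trend removed), against 0.00 over all genes. Creb1 (-0.94 ± 0.29, SE) and its relative Atf1 (-0.84 ± 0.24) were lower and the actin-regulated coactivator gene Mrtfa (0.42 ± 0.14) higher. With the trend removed Creb1 was at -0.13, Atf1 at -0.55 and Mrtfa at 0.22. All 23 MAP kinase pathway genes were measured, of which 4 rose and 9 fell (median -0.13). Hras, which encodes a RAS protein upstream of the kinases, was higher by 1.32 ± 0.38 and Map2k7, which encodes an activator of JNK, by 1.73 ± 0.52, while Mapk8, which encodes the JUN kinase JNK, was lower (-0.95 ± 0.29). With the trend removed these were at 1.13, 1.22 and -0.47. All 19 phosphatases and feedback inhibitors were measured, of which 2 rose and 7 fell (median -0.18). Dusp16 (-0.94 ± 0.30) and Dusp10 (-0.52 ± 0.19), which encode phosphatases of JNK and p38, and Spred1 (-0.73 ± 0.26), which encodes an inhibitor of RAS signalling, had the smallest p of that list in all 9 libraries, and were at -0.51, -0.32 and 0.05 with the trend removed. Larger differences stood elsewhere in the list, such as -1.16 for Spry2 (-0.98 with the trend removed), which encodes another feedback inhibitor and is named here after its value was seen.

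Of the factors that bind AU-rich elements or carry out decay, all 19 were measured, none rose and 11 fell, with a median of -0.46 (-0.25 with the trend removed). Elavl1, which encodes the stabiliser HuR, was at 7.41, 7.51 and 7.61 log2 CPM in WT, at 6.63, 7.19 and 7.36 in S970A, and at 6.43, 6.27 and 6.78 in S970D. S970D and WT did not overlap, with a difference of -1.02 ± 0.21 (SE; limma adjusted p = 0.0756, and 0.00626 without S970A replicate 1), or -0.46 with the trend removed. Its neuronal relative Elavl2 differed by -0.94 ± 0.28 (-1.07 with the trend removed) and the translational repressor gene Tia1 by -0.74 ± 0.23 (-0.03 with the trend removed).

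Of AP-1 and EGR target genes, 16 of 21 were measured, none rose and 2 fell (median -0.13). They were Fst, which encodes the activin-binding protein follistatin (-1.01 ± 0.29, SE), and the angiogenic factor gene Vegfa (-0.58 ± 0.20), at -1.15 and -1.12 with the trend removed. Plau, which encodes urokinase, was at -0.70 ± 0.26 and did not pass. Of 15 stress genes around Atf3, all measured, 6 rose and 3 fell (median 0.17, and -0.01 with the trend removed). Atf4, whose product activates Atf3 in the integrated stress response, was higher by 0.78 ± 0.25 and the cell cycle inhibitor gene Cdkn1a by 0.38 ± 0.13, and Eif2ak2, which encodes the kinase PKR, was lower (-0.67 ± 0.21). With the trend removed Atf4 was at 0.43, Cdkn1a at 0.11 and Eif2ak2 at -0.10. Atf4 and Atf3 thus stood on opposite sides, Atf4 at 10.30, 9.84 and 9.68 log2 CPM in WT and 10.85, 10.70 and 10.61 in S970D. Of the other immediate early genes 28 of 33 were measured, of which 6 rose and 9 fell (median -0.07, and -0.30 with the trend removed). Rhob, which encodes a small GTPase (0.64 ± 0.21), and Id1, which encodes an inhibitor of helix-loop-helix factors (0.88 ± 0.31), were higher, and the antiproliferative gene Btg1 (-1.18 ± 0.38) was lower. With the trend removed they were at 0.32, 0.29 and -0.53.

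**Figure D5:**
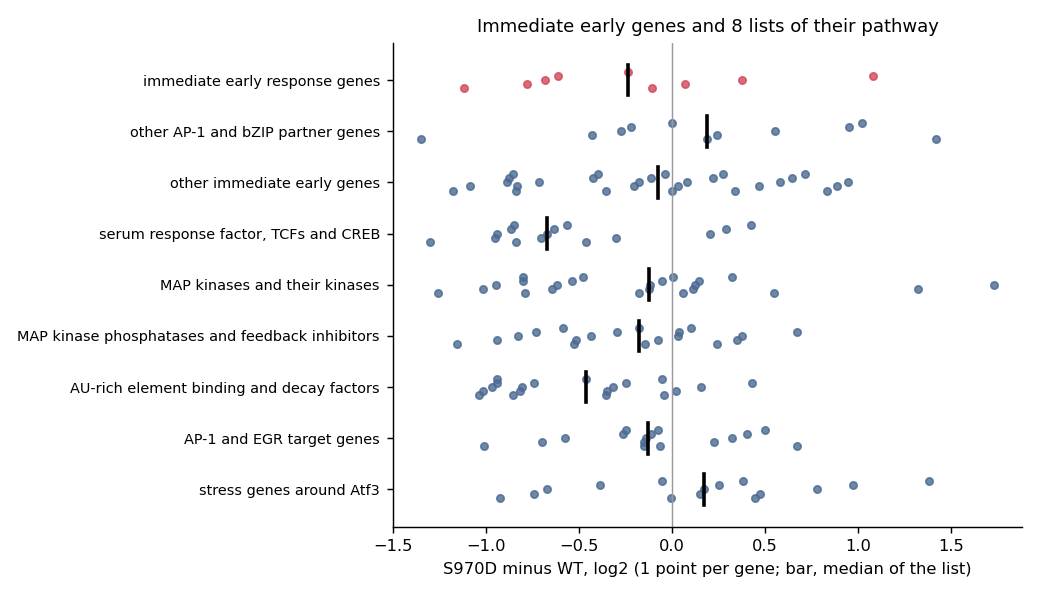
Log2 difference between S970D and WT (horizontal axis) of the 9 members (top row) and of the measured genes of 8 pathway lists, 1 point per gene, with the median of each list as a bar. Every list spans both sides of 0; the medians run from -0.68 for the serum response factor and CREB genes to 0.19 for the other AP-1 and leucine zipper genes, whose median was -0.19 with the length and GC trend removed.

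In S970A against WT no gene of the 8 lists passed, also without S970A replicate 1, and the medians ran from -0.31 for the serum response factor and CREB genes to 0.12 for the stress genes. In S970D against S970A without that library, 18.7% of all genes passed as higher and 20.8% as lower. These calls carry the limit given above, that the library left out was singled out for its likeness to S970D. None of the 19 AU-rich element factors rose there and 10 fell, and none of the 15 serum response factor and CREB genes rose and 8 fell. Of the 23 MAP kinase genes 4 rose and 9 fell, of the 19 phosphatases and feedback inhibitors 1 rose and 6 fell, and of the 28 other immediate early genes 6 rose and 8 fell. Of the 16 target genes none rose and 2 fell, of the 11 other AP-1 and leucine zipper genes 4 rose and 2 fell, and of the 15 stress genes 5 rose and 2 fell. Elavl1, Hras and Zfp36l1, which encodes a decay factor of the tristetraprolin family, were among those that passed (limma adjusted p of 0.0148, 0.0147 and 0.0241). In all 9 libraries their differences were -0.57 ± 0.21 (SE), 0.82 ± 0.38 and -0.92 ± 0.34, or -0.22, 0.70 and -0.81 with the trend removed. Zfp36l1 was low, with every library below 0 log2 CPM. It was at -1.07, -0.46 and -0.08 in S970A replicates 1, 2 and 3 and at -1.16, -1.4 and -1.79 in S970D.

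The patterns of the members over the 9 libraries were set beside those of 8286 genes, by the root mean square difference of centred log2 CPM. These genes had a mean log2 CPM of 1 or more and an SD of 0.2 or more. Predicted genes, with symbols of the Gm number or Rik form, were left out. The nearest genes were Sgo2a (0.038) and Elovl5 (0.053) for Klf6, Lncppara (0.046) and Tpm2 (0.057) for Ier2, Ralgps1 (0.044) and Atxn7l3b (0.067) for Egr1, Rsbn1 (0.070) and Nsd1 (0.072) for Atf3, and C2cd2 (0.056) and Carhsp1 (0.056) for Junb. For Jun they were Aox4 (0.071) and Tm7sf3 (0.075), for Fos Vps33b (0.073) and Slc38a1 (0.074), for Fosb Drp2 (0.076) and Zdhhc20 (0.126), and for Egr2 Lrp8 (0.123) and Aco1 (0.143). Fos, Fosb and Jun varied so little themselves (SD under 0.2) that nearness to them says only that both were flat. Within the group, Egr1 and Atf3 were the nearest pair (0.123), then Fos and Jun (0.139), and Ier2 was the farthest from its nearest fellow member, Junb (0.411). The authors' deposited table gives a cluster colour to 5 of the 9 members (how the clusters were made is not given in the sources used here): turquoise for Klf6 and Atf3, yellow for Egr1, brown for Junb and blue for Ier2.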

How the data were processed

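Total RNA was sequenced for 101 cycles from each end from a stranded mRNA kit, per the labels' protocols, and bcl2fastq 2.20, Salmon 1.1.0, R 3.6.3 and GRCm38 are named in the submitters' processing notes. The authors deposited 1 table of log2 CPM for 15977 genes, with replicates not pooled; for its scaling, prior count and low filter the sources used here give nothing. Turned back to CPM, libraries sum to 955214 to 1069215. Depth is unknown, which limits the precision of low genes such as Fosb, and a prior count, if one was added, would shrink their differences. No per-sample column was left unused.

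All genes entered limma 3.58.1 (R 4.3.3) on the 9 libraries with group as the only term, 6 residual degrees of freedom and an intensity trend in the variances. P-values were two-sided, with Benjamini-Hochberg adjustment over all genes, and an adjusted p under 0.05 passed. The script was tested on simulated data. Alternatives were the replicate block, a pseudocount of 1, a mean log2 CPM of at least 1, quantile normalization, median centring, the 6 libraries compared, each library left out, and removal of the trend over transcript length and GC content (splines with 5 degrees of freedom each; 99.9% of gene IDs found in GENCODE vM21), alone, with the block, or, added later, without S970A replicate 1.

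Groups and replicate numbers come from the labels, which do not say what a number marks. Between S970D and WT, the deviations of libraries of one number from their group means had correlations of 0.31, 0.11 and 0.16 for numbers 1 to 3. Each was over 0.1, and differences between these libraries are given above as pairs, though the labels do not call them so. The fit with group as the only term and the exact permutation tests leave these pairs out. The replicate block covers all 9 libraries, those of S970A included. Between S970A and WT the correlations were 0.59, 0.07 and 0.49, and between S970D and S970A they were 0.38, 0.00 and 0.24. Neither set was over 0.1 for every number, and no pairs are given for it. Numbers 1 and 3 were nevertheless more alike between S970A and WT than any number between S970D and WT. The correlations therefore do not settle whether a number marks a pair. The members and lists were chosen with earlier results of these data known. All members are named; of each list, up to 3 genes with the smallest p in a comparison; and for each member the 2 genes of most similar pattern.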

Additional observations from a re-analysis of the deposited data

How the results depend on the processing

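Of 486 values, 27 member differences under 18 alternatives each, 422 kept their direction and their side of the threshold, 27 kept the direction and passed only under the alternative, and 37 changed sign; none that was called became uncalled, since none was called in the fit of all 9 libraries. The count of members called in S970D against WT, 0 there, was 5 with the replicate block, against 45.5% of all genes. It was 4 with the 6 libraries compared. With the length and GC trend removed and the replicate block it was 4 (Klf6 and Ier2 no longer among them), against 24.7% of all genes. It was 5 with the trend removed and S970A replicate 1 left out, against 26.2%. With 1 library left out it was 0 to 4, the 4 without S970A replicate 1, where 47.7% of all genes passed. In S970D against S970A it was 3 with the trend removed and S970A replicate 1 left out. With 1 library left out it was 0 to 4 there, again the 4 without S970A replicate 1, where 39.5% of all genes passed. Shares of all genes are not given here for the 6 libraries compared or for the count of 3. None of these counts is read as a result about the members. The count was 0 under all 18 alternatives in S970A against WT. The block changed no call in the 2 comparisons with S970A. Directions that turned in S970D against WT were Junb with the trend removed (-0.38, also with the block or without S970A replicate 1), Fosb with quantile normalization (-0.0013), with the trend removed (-0.059, likewise) and with 1 library left out (-0.0078 to 0.22), and Fos with median centring (0.0016), which shifted the median over all genes by 0.11. In S970D against S970A, Fos turned with median centring (0.0083) and with 1 library left out (-0.23 to 0.050), Fosb with 1 library left out (-0.017 to 0.27) and with the trend removed and S970A replicate 1 left out (-0.11), and Junb with the trend removed, alone or with the block (-0.17), and without S970A replicate 1 as well (-0.28). In S970A against WT, Junb turned with the trend removed, alone or with the block (-0.21). With the trend removed and S970A replicate 1 left out, values turned for Fos (0.14), Fosb (0.051), Jun (0.0086), Junb (-0.10), Egr2 (0.26), Ier2 (-0.15) and Klf6 (0.030). With 1 library left out the ranges were -0.16 to 0.12 for Fos, -0.16 to 0.088 for Fosb, -0.10 to 0.032 for Jun, -0.072 to 0.17 for Junb, -0.52 to 0.25 for Egr2, -0.11 to 0.63 for Ier2 and -0.67 to 0.011 for Klf6. Causes of these turns were not tested. Without read counts, the depth behind the low members Fosb, Egr2 and Fos cannot be given.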
